A study of Mus musculus with 8 samples.

Results

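DNA methyltransferases and their partners were described in RNA precipitated with an anti-DAZL antibody and in the starting lysate (input) of gonads from E14.5 mouse embryos of strain MCH. The 5 genes were Dnmt1, Dnmt3a, Dnmt3b, Dnmt3l and Uhrf1, and every non-control probe of them was taken by its gene name or accession, which gave 8 of the 41101 probes measured. All 8 were well above background in both replicates of 1 group or more and belonged to the 18265 probes tested. In RNA immunoprecipitation (RIP), an RNA-binding protein is drawn from a lysate with an antibody, and the RNA bound to it is purified and quantified. DAZL is such a protein of germ cells. The 4 groups were the XX input, the XX immunoprecipitate (IP), the XY input and the XY IP, each with 2 arrays of lots of 50 gonads, which hold germ cells together with somatic cells. Labelling started from 50 ng of RNA for the inputs and from 1 ng for the IPs. Every IP of both sexes used the same antibody, and no IP with a control antibody was analysed here.

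DNMT1 is the maintenance methyltransferase, which copies CpG methylation onto the new strand after DNA replication, and UHRF1 recognises the hemimethylated sites and brings DNMT1 to them. DNMT3A and DNMT3B are the de novo methyltransferases, and DNMT3L is a relative without catalytic activity that binds and stimulates them. In the mouse germ line, male germ cells gain methylation before birth, and female germ cells do so only in growing oocytes after birth.

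Levels are given as log2 of the background-subtracted signal relative to the 75th percentile of the same array, so that 0 is the signal of that percentile and a step of 1 is a doubling. IP arrays had less signal than input arrays. Between 6068 and 9468 probes were well above background on an IP and between 16713 and 20391 on an input. The lowest level among probes well above background was between 0.03 and 1.02 on the IPs and between -3.59 and -2.34 on the inputs, so a gene of modest level in the input could not be followed downwards in an IP. Differences were tested with limma on all 8 arrays, and p-values were adjusted over the 18265 probes. A difference between IP and input was called at an adjusted p under 0.05 and at least 4-fold, and a difference between XX and XY at an adjusted p under 0.05. All XX arrays were on 1 slide and all XY arrays on another, so in comparisons of XX with XY the effects of slide and of sex cannot be told apart. IP and input were compared within a slide, but every IP was labelled from 1 ng and every input from 50 ng. In that comparison the effects of precipitation and of the starting amount cannot be told apart. In bulk gonads, fewer cells of a type and less RNA per cell cannot be told apart.

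Between the inputs of XX and XY, none of the 3 probes of the maintenance genes Dnmt1 and Uhrf1 passed the test, with differences of at most 1.24-fold, and 2 of the 5 probes of the de novo genes, 1 of Dnmt3a and that of Dnmt3l, were lower in XX, beside 6.10% of all probes. The probe of Dnmt3l entered the test only through XY, where it was high. Dnmt3l stood apart: it was measured on all 4 XY arrays and on no XX array. No probe of the 5 genes was enriched at least 4-fold in an IP from a level above background. The probe positions of the files are on mm8. No annotation of mm8 was used, so exons and introns are not given.

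The promoters of the de novo genes that differed between the inputs are shown because the results on the sexes turn on these genes. They were read from the RefSeq promoter table of GRCm38.p6, in which all 5 genes were found with 12 windows. A window holds 250 bases before a transcription start and 50 from it on. Capitals mark CG, the dinucleotide on which these enzymes act, which was counted without regard to strand because CG reads the same on both.

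Dnmt3l first listed start, chr10:78042037-78042336, plus strand: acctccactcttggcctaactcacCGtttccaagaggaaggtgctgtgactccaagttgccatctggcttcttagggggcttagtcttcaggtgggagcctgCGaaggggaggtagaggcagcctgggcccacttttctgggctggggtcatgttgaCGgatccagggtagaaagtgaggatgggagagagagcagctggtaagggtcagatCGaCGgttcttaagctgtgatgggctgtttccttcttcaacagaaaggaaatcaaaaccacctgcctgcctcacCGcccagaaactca

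Dnmt3a first listed start, chr12:3806730-3807029, plus strand: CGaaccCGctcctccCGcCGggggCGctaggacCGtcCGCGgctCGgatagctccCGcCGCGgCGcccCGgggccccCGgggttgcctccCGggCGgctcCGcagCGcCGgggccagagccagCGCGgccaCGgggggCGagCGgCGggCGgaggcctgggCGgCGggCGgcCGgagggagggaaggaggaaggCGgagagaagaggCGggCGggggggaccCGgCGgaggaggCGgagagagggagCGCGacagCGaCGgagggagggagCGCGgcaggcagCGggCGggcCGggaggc

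Dnmt3a last listed start, chr12:3891494-3891793, plus strand: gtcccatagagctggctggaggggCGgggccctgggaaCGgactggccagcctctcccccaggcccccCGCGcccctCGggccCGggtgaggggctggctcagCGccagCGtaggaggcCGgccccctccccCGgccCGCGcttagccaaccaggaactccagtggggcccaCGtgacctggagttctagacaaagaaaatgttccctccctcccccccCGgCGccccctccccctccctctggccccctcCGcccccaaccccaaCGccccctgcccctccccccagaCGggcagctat

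The first window of Dnmt3l held 6 CG, and the other windows of this gene held 4 and 3. The first window of Dnmt3a held 46 CG and the overlapping second window 47. The last start of Dnmt3a, 84764 bases downstream of the first, had a window with 18 CG. Among the genes whose inputs did not pass the test between the sexes, Dnmt3b had 1 window with 30 CG, Uhrf1 had windows with 12 and 33, and Dnmt1 had windows with 2, 12 and 33. Over all 32851 windows of the table the median was 7 CG, and 94.6% held at least 1. Windows with at least 20 CG made up 26.5% of all windows, and 5 of the 12 windows of these genes. The 3 windows of Dnmt3l were therefore all below the median of the table. Methylation was not measured, and these counts are a description of the sequence only.

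Dnmt1 was measured by 1 probe, A_51_P195573 (chr9:20657931-20658299, minus strand), which was well above background on all 8 arrays. Its level was 1.77 and 1.78 in the XX inputs, 2.89 and 3.31 in the XX IPs, 1.70 and 1.65 in the XY inputs, and 2.52 and 3.08 in the XY IPs. Both IPs lay above both inputs in each sex on this scale. In the order of the group means, the XX IP came first (3.10 ± 0.30, SD, n = 2), then the XY IP (2.80 ± 0.39), the XX input (1.77 ± 0.01) and the XY input (1.67 ± 0.04). The arrays of the XX IP and the XY IP overlapped. The inputs of the sexes did not overlap, but their means were only 1.07-fold apart (log2 difference 0.10, 95% interval -0.77 to 0.97, limma adjusted p = 0.93).

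Relative to the input, Dnmt1 RNA was 2.51-fold higher in the XX IP (log2 difference 1.33 ± 0.40 SE, limma adjusted p = 0.0162) and 2.18-fold higher in the XY IP (1.12 ± 0.40 SE, adjusted p = 0.0403), but the sign turned with scaling to the 50th percentile (-0.68 in XX and -0.74 in XY) and under background correction by normexp (-0.38 and -0.29), which adds an offset of 50 scanner units to each signal. The 75th percentile of the processed signal, used on the first scale without an offset, was 6.83 to 13.1 units on the IPs. Neither difference reached the 4-fold limit, and both missed the adjusted p without either of the XX input arrays (0.113 or 0.107 in XX, 0.0913 in XY). That of XY also missed it without XY IP replicate 2 (0.1) or either XY input array (0.205 or 0.223). Without that limit, 25.9% of all probes were higher in the IP of XX and 20.2% in that of XY, and 22.8% and 20.6% were lower. Scaling to the 50th percentile moved the median difference of all tested probes from 0.09 to -1.92 in XX and from -0.03 to -1.90 in XY, a shift that leaves the rank of a probe as it was. By rank, the difference of Dnmt1 stood at the 76.0th percentile of the 18265 probes in XX and at the 77.6th in XY. Among the 4206 probes that were well above background on all 8 arrays, it stood at the 63.0th and 65.0th percentiles. The rank changed with the processing. Among the 18265 probes it was lowest with normexp, at the 39.6th and 38.8th percentiles, and higher than on the first scale with quantile normalization, at the 83.7th and 86.2nd percentiles. With values under the highest detection limit set to that limit it was the 89.8th and 91.5th. The difference between IP and input was 0.20 larger in XX than in XY (95% interval -1.02 to 1.43, adjusted p = 0.911), and the sign of this small difference turned with quantile normalization (-0.0041) and with normexp (-0.087).

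Uhrf1 was measured by 2 probes close to each other on chromosome 17 of mm8, A_51_P491742 (chr17:55956840-55956899) and A_52_P314705 (chr17:55956943-55957002), both on the plus strand and both well above background on all 8 arrays. The level of A_52_P314705 was 3.14 and 3.37 in the XX inputs, 3.90 and 4.87 in the XX IPs, 3.59 and 3.54 in the XY inputs, and 3.51 and 4.52 in the XY IPs. The second array of each IP was the higher, and in XY the first IP array lay just below both inputs. The level of A_51_P491742 was 1.17 and 1.16 in the XX inputs, 1.70 and 2.59 in the XX IPs, 1.47 and 1.40 in the XY inputs, and 1.58 and 2.16 in the XY IPs. At this probe both IPs lay above both inputs in each sex. The group means of A_52_P314705 were 4.38 ± 0.68 in the XX IP, 4.01 ± 0.71 in the XY IP, 3.56 ± 0.04 in the input of XY and 3.26 ± 0.16 in that of XX (SD, n = 2), and the probe A_51_P491742 had the same order. Neighbours in this order overlapped at A_52_P314705, except for the inputs of the sexes, where XX was lower on every array.

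Neither Uhrf1 probe passed the test in any comparison. In the inputs, XX minus XY was -0.31 (95% interval -1.33 to 0.72, adjusted p = 0.788) at A_52_P314705 and -0.27 (-1.21 to 0.67, adjusted p = 0.795) at A_51_P491742, with the opposite sign under normexp (0.70 and 0.29). For the IP against the input, the log2 differences of A_52_P314705 were 1.13 ± 0.47 SE in XX (adjusted p = 0.0663) and 0.45 ± 0.47 SE in XY (adjusted p = 0.469), both negative with scaling to the 50th percentile (-0.88 and -1.41) and with normexp (-0.81 and -1.07). Those of A_51_P491742 were 0.98 ± 0.43 SE in XX (adjusted p = 0.0784) and 0.43 ± 0.43 SE in XY (adjusted p = 0.441), also negative with scaling to the 50th percentile (-1.03 and -1.43) and with normexp (-0.29 and -0.45). Among the 4206 probes measured on all arrays, the differences of A_52_P314705 stood at the 59.4th percentile in XX and the 51.0th in XY, and those of A_51_P491742 at the 56.9th and 50.5th. On this scale and among these probes, Uhrf1 was closer to the middle than Dnmt1. With normexp and among all tested probes, A_52_P314705 stood at the 29.4th percentile in XX and the 16.7th in XY, and A_51_P491742 at the 41.7th and 32.5th, so there the order held for A_51_P491742 in XX only. The difference between IP and input was larger in XX than in XY by 0.68 (95% interval -0.78 to 2.13, adjusted p = 0.692) and 0.54 (-0.78 to 1.87, adjusted p = 0.733) at the 2 probes.

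**Figure D1:**
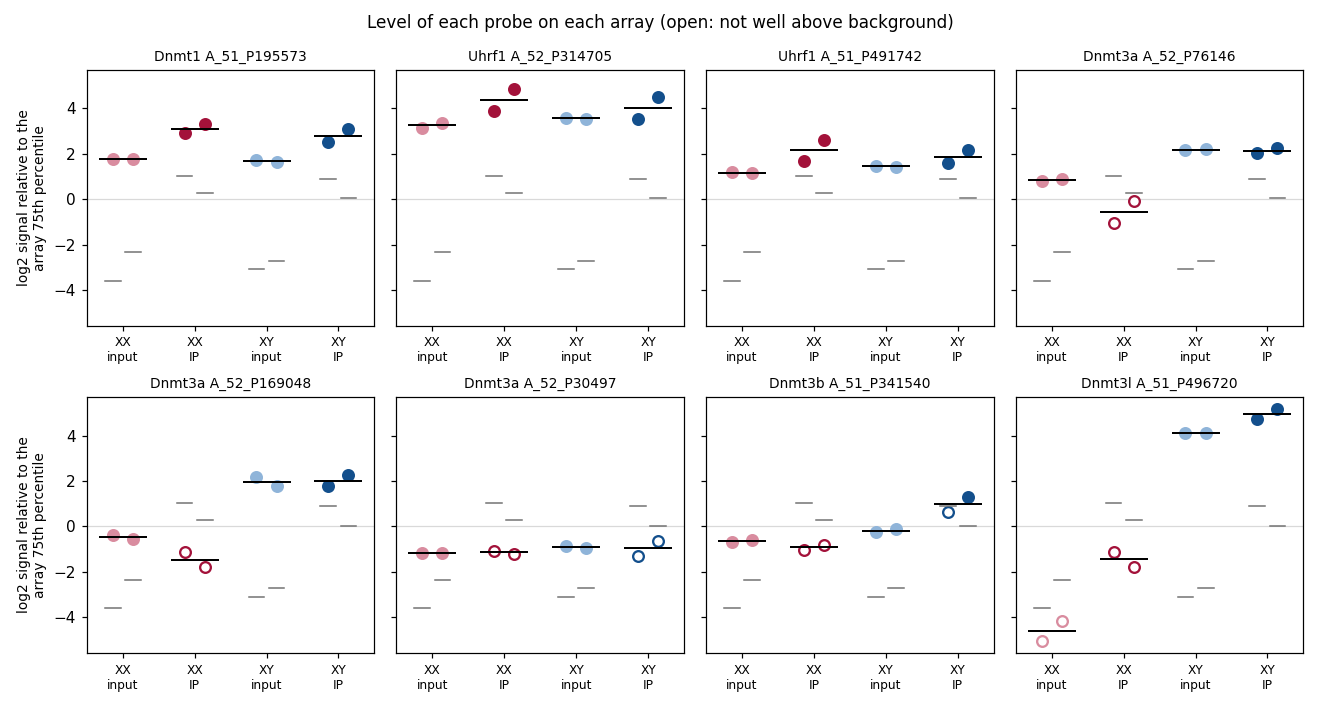
Level of each of the 8 probes on each of the 8 arrays, as log2 of the signal relative to the array's 75th percentile, by group. Filled points were well above background and open points were not, black lines are group means, and short grey lines give the lowest level among probes well above background on that array. Dnmt3l lies at 4.10 or above on every XY array and at background on all XX arrays, while Dnmt1 and Uhrf1 are measured on all 8.

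Dnmt3l gave the largest difference between the sexes among the 8 probes. Its probe, A_51_P496720 (chr10:77466496-77466555, plus strand), had a level of 4.13 and 4.10 in the XY inputs and of 4.72 and 5.19 in the XY IPs. In XX its level was -5.07 and -4.16 in the inputs and -1.14 and -1.78 in the IPs, and none of these 4 values was well above background. In scanner units, the signals were 2077.4 and 1388.3 in the XY inputs against 5.2 and 4.3 in the XX inputs, and 179.8 and 478.1 in the XY IPs against 4.1 and 3.7 in the XX IPs. The signals of XX and XY thus did not overlap in either fraction, and those of XX stayed within a few scanner units of each other.

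Because the XX level has only an upper limit, each XX array was set to the lowest level among its probes well above background wherever that was higher than the probe's own value. On this basis Dnmt3l RNA was at least 135-fold lower in the XX input than in the XY input. This bound rests on the mean of the detection limits of the XX inputs, -3.59 and -2.34. The limma test was of the measured means (-4.61 and 4.11, adjusted p = 1.43e-06), not of the bound. The probe entered the test only through XY, where it was high. The difference was past the limit under each of the 19 alternatives that gave a value, with fitted values from -9.18 to -3.09. Between the IPs, Dnmt3l was at least 19.7-fold lower in XX (measured means -1.46 and 4.95, adjusted p = 1.37e-05), but with normexp and its offset the difference missed the limit (-1.80, adjusted p = 0.178).

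For Dnmt3l, the recovery with DAZL could be measured in XY only. The XY IP lay above the XY input on every array, by a log2 difference of 0.84 ± 0.45 SE (1.79-fold, 95% interval -0.13 to 1.81, adjusted p = 0.152), which missed the limit and turned negative with scaling to the 50th percentile (-1.03) and with normexp (-0.89). In XX, the fit placed the IP above the input, and this was the single call among the 8 probes at 4-fold. Both sides were at background there, so no fold is given, and the signals of the XX IPs in scanner units (4.1 and 3.7) were below those of the XX inputs (5.2 and 4.3).

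Dnmt3a was measured by 3 probes on the plus strand of chromosome 12 of mm8, which did not show the same pattern. A_52_P169048 (chr12:3908241-3908300) had a level of -0.39 and -0.57 in the XX inputs and of 2.16 and 1.79 in the XY inputs. The XY inputs were 5.49-fold higher (log2 difference -2.46 ± 0.42 SE for XX minus XY, adjusted p = 0.00209). This fall in XX kept its direction under the 19 alternatives that gave a value and its call under 17, and missed the limit with normexp (-1.10, adjusted p = 0.094) and with all values under the highest detection limit set to that limit (-0.95, adjusted p = 0.108). A_52_P76146, at chr12:3906882-3907663, a span longer than the 60 bases of most probes, had a level of 0.78 and 0.88 in the XX inputs and of 2.16 and 2.20 in the XY inputs. Its XY inputs were higher on every array by 2.55-fold, but the test missed the limit (-1.35 ± 0.43 SE, adjusted p = 0.062) and passed it under 9 of 19 alternatives. A_52_P30497 (chr12:3912604-3912663) was the dimmest, with -1.17 and -1.16 in the XX inputs and -0.88 and -0.96 in the XY inputs. Its difference was only -0.24 (95% interval -1.11 to 0.62, adjusted p = 0.799), and this interval did not overlap that of A_52_P169048 (-3.37 to -1.55). The difference between probes was not tested, and which transcripts of Dnmt3a each probe detects was not determined.

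In the IPs, the probes of Dnmt3a were at background in XX. A_52_P76146 had 2.01 and 2.25 in the XY IPs against -1.07 and -0.07 in the XX IPs, and A_52_P169048 had 1.77 and 2.25 against -1.12 and -1.80. The XY IPs were well above background and the XX IPs were not, with no overlap. Dnmt3a RNA was at least 2.79-fold lower in the XX IP at A_52_P76146 (measured means -0.57 and 2.13, adjusted p = 9.11e-04) and at least 2.56-fold lower at A_52_P169048 (-1.46 and 2.01, adjusted p = 1.74e-04). Both calls were lost with normexp (-0.33 and -0.53, adjusted p = 1.00 and 0.85), and the second also with values under the highest detection limit set to that limit (-0.99, adjusted p = 0.0711). A_52_P30497 was at background in both IPs (-1.07 and -1.21 in XX, -1.31 and -0.64 in XY).

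Against the XY input, the XY IP of Dnmt3a showed no difference past the limit on this scale. The log2 difference was -0.05 (95% interval -0.98 to 0.88, adjusted p = 0.936) at A_52_P76146 and 0.04 (-0.87 to 0.95, adjusted p = 0.952) at A_52_P169048, with IP and input arrays overlapping. Under scaling to the 50th percentile these values became -1.91 and -1.83 (adjusted p = 0.0324 and 0.0195), and with normexp and outlying local backgrounds replaced -1.03 and -0.96 (adjusted p = 0.0029 and 0.0090), all past the adjusted p and under 4-fold. In XX, the fitted difference of A_52_P76146 was -1.40 (adjusted p = 0.0179), and against the mean detection limit of the IPs it was lower by at least 1.13-fold. The limit of the first XX IP (1.02) lay above both inputs, so on that array no fall could be measured, and with values under the highest detection limit set to that limit no difference was left. At the other 2 probes the mean limit of the XX IPs lay above the input level, so a fall could not be measured. The same held for A_52_P30497 in XY.

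Dnmt3b was measured by A_51_P341540 (chr2:153378788-153378847, plus strand). Its level was -0.68 and -0.58 in the XX inputs and -0.26 and -0.12 in the XY inputs. The XY inputs were higher on both arrays, but by 1.35-fold only (XX minus XY -0.44, 95% interval -1.31 to 0.43, adjusted p = 0.60). In the IPs it was at background in XX (-1.02 and -0.81), and in XY it was at background on the first array (0.64) and well above it on the second (1.31). The XX IP was called lower than the XY IP (measured means -0.91 and 0.98, adjusted p = 0.0053), but with 1 of the 4 arrays above background no fold is given. This call was lost in 6 of 19 alternatives, among them no filter (adjusted p = 0.0512) and values under the highest detection limit set to that limit (-0.14, adjusted p = 0.645). The XY IP was above the XY input on every array, with a fitted difference of 1.17 (adjusted p = 0.0355). With 1 of the IP arrays at background no fold is given, the difference was 0.14 with values under the highest detection limit set to that limit, and the sign turned with scaling to the 50th percentile (-0.70). In XX the detection limit of the IPs lay above the input level. A probe that the files describe as similar to Dnmt3b, A_52_P666998, is not one of the 5 genes and was at background on all 8 arrays.

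Over the 8 probes, 0 were higher and 2 were lower in the XX input than in the XY input, against 5.87% and 6.10% of all probes. The median difference of the 8 was -0.37, against -0.003 over all probes. Between the IPs, 0 were higher and 4 were lower in XX, against 11.7% and 8.78% of all probes, all 4 with XX levels at background, and Dnmt3b also at background on 1 of the XY arrays. In the XX IP against the XX input, 1 of the 8 was called higher (Dnmt3l, at background on both sides) and 0 lower, against 14.0% and 9.91%. In XY, 0 were called higher and 0 lower, against 10.2% and 7.68%. Without the 4-fold limit, 2 were higher (Dnmt1 and Dnmt3l) and 1 lower (Dnmt3a) in XX, beside 25.9% and 22.8% of all probes, and 2 were higher (Dnmt1 and Dnmt3b) and 0 lower in XY, beside 20.2% and 20.6%. The difference between the sexes in IP against input was called for 0 of the 8 in either direction, against 2.18% and 1.12%. At an unadjusted limma p under 0.05, 1 was higher and 2 were lower there, beside 10.2% and 6.26% of all probes, and none of them was a probe of Dnmt1 or Uhrf1, the genes measured in all 4 groups. At the same limit, 4 of the 8 were higher and 2 lower in the XX IP than in its input, beside 29.4% and 26.5% of all probes. Of the 4, 1 was Dnmt3l, at background on both sides, and of the 2, 1 was Dnmt3a A_52_P169048, whose fall could not be measured because the detection limit of the IPs lay above its input level. In XY, 2 were higher and 0 lower, beside 24.3% and 25.4%. Between the inputs, 0 were higher and 3 lower in XX, beside 12.1% and 11.7%, and between the IPs 0 and 4, beside 16.7% and 14.4%. These counts are a description of 8 probes from 5 genes. Dnmt3l entered the tested probes only through XY, where it was high, so the counts lower in XX cannot be read against the shares of all probes.

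**Figure D2:**
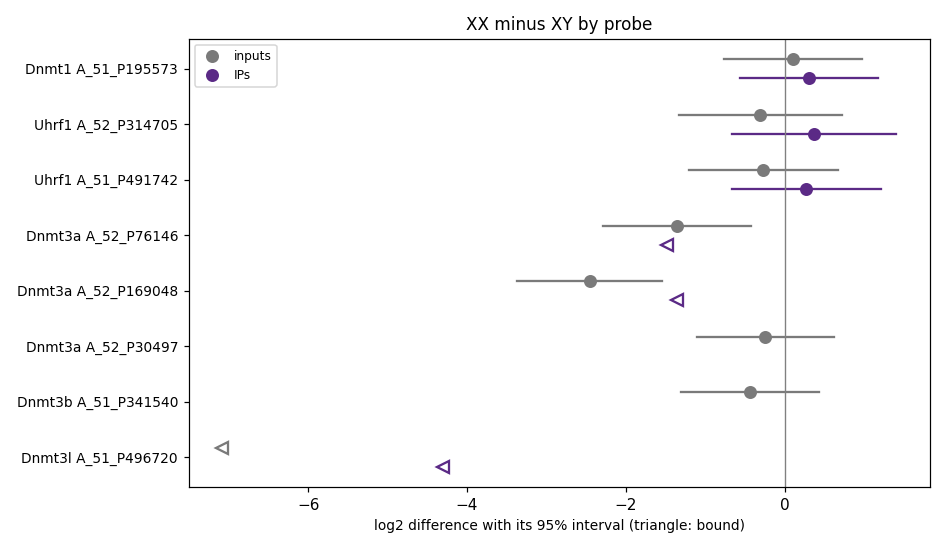
Log2 difference XX minus XY of each probe in the inputs (grey) and in the IPs (purple). Filled circles with 95% intervals were well above background on all 4 arrays, and triangles give the bound where the XX level was at background. The bound rests on the mean detection limit of the XX arrays of that fraction. Pairs with fewer than 2 arrays above background are not drawn. Dnmt1 and Uhrf1 lie around 0, and Dnmt3l is at least 135-fold lower in the XX input and at least 19.7-fold lower in the XX IP.

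**Figure D3:**
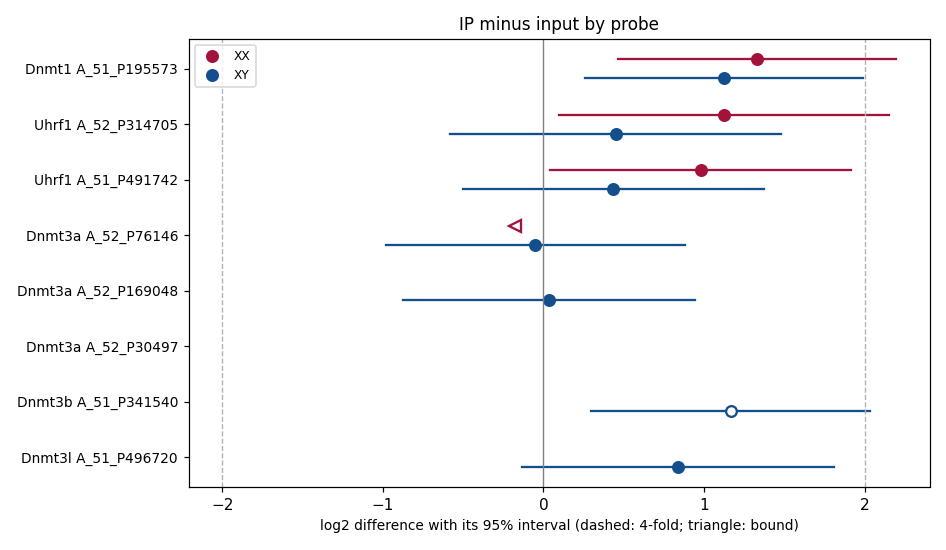
Log2 difference IP minus input of each probe in XX (red) and XY (blue), with the 4-fold limits dashed. Pairs in which both sides were at background, or the detection limit of the IP lay above the input level, are not drawn. The open circle (Dnmt3b in XY) had 1 IP array at background, and the triangle is a bound from the mean detection limit of the IPs (Dnmt3a A_52_P76146 in XX). No drawn value reaches 4-fold, and Dnmt1 is the highest measured on all 4 arrays of both sexes, at 1.33 and 1.12, with the opposite sign when arrays are scaled to the 50th percentile (-0.68 and -0.74) or corrected with normexp (-0.38 and -0.29).

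**Figure D4:**
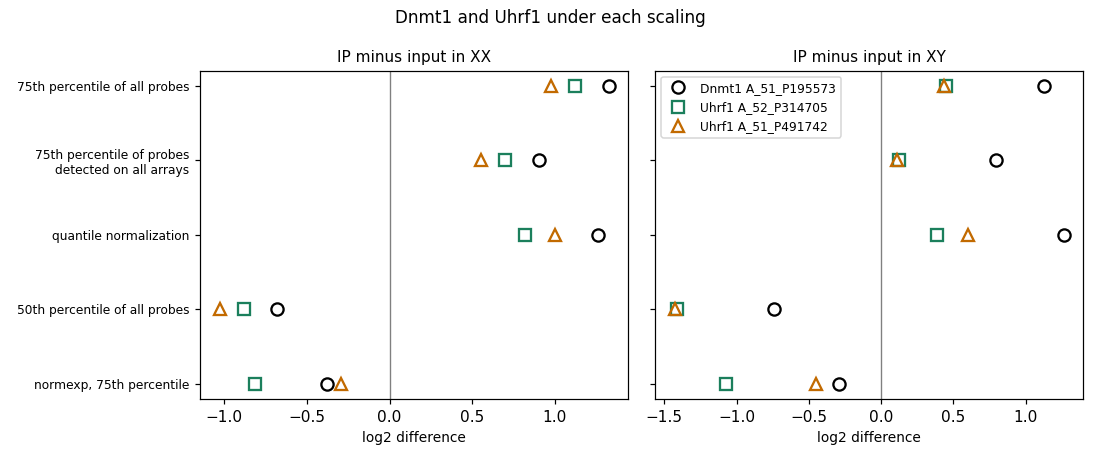
Log2 difference IP minus input of the Dnmt1 probe and the 2 Uhrf1 probes under 5 ways of scaling or background correction, in XX (left) and XY (right). All 3 probes are positive with the 75th percentile and with quantile normalization and negative with the 50th percentile and with normexp, and Dnmt1 lies to the right of both Uhrf1 probes under 4 of the 5 in XX and under all 5 in XY.

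Markers of some cell types in the gonads moved with sex beside these results, and those of others did not. The targeted protein's own mRNA, Dazl, was higher in the IP by 6.44-fold and 8.52-fold in XX and by 4.17-fold and 7.62-fold in XY at its 2 probes. These values depended on the scale as well, and were 1.60-fold and 2.12-fold in XX and 1.15-fold and 2.09-fold in XY with scaling to the 50th percentile, and 1.37-fold and 1.90-fold in XX and 1.02-fold and 1.58-fold in XY with normexp. With outlying local backgrounds replaced, A_52_P271166 of Dazl turned negative in XY (-0.16). On the first scale, with the 50th percentile and with normexp, Dnmt1 and Uhrf1 were below Dazl at every probe. The counts between the inputs stand beside 5.87% higher and 6.10% lower of all probes. Of 9 Sertoli cell genes tested, 7 were lower in the XX input, and their summed level, in units of the array's 75th percentile, was 3.92 to 3.93 in the XX inputs against 192 to 226 in the XY inputs. Their markers Amh, Sox9 and Dhh were tested, and Amh was at background in XX. Of 5 Leydig cell genes, 4 were lower in the XX input (5.94 to 7.53 against 91.3 to 93.0), and of 4 pregranulosa genes, 3 were higher (98.5 to 99.1 against 13.3 to 14.3). Foxl2, Irx3 and Bmp2 of the pregranulosa list were not tested. Well above background on every input array were 5 of the 9 Sertoli, 3 of the 5 Leydig and 3 of the 4 pregranulosa genes. These counts therefore cannot be read against the shares of all probes. Of 6 endothelial and 5 erythroid genes, 0 were called between the inputs. The 15 germ cell genes summed to 351 to 410 in the XX inputs and 247 to 299 in the XY inputs, with 2 higher and 6 lower in XX. Their differences between the inputs ranged from -4.65 to 2.76, with a median of -0.75. The part of cell composition in the levels of Dnmt3l and Dnmt3a was not tested. The 24 proliferation genes, to which the maintenance genes are linked through DNA replication, summed to 374 to 421 in the XX inputs and 472 to 487 in the XY inputs, with 1 higher and 0 lower. In the IPs they summed to 191 to 278 in XX and 188 to 352 in XY, with 5 and 3 of 24 lower than in the input, beside 9.91% and 7.68% of all probes. On the IP arrays 15 to 19 of the 24 were well above background in XX and 14 to 21 in XY. These sums therefore include values at background, and they are on the first scale only.

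Other genes of the pathway were taken from lists of methylation maintenance, de novo methylation, removal, reading and methyl donor supply. Of 60 genes on the array 52 were tested, 1 probe each. In the inputs, 1 was higher and 5 were lower in XX, beside 5.87% and 6.10% of all probes, with a median difference of -0.08. The gene that was higher was Hells, a chromatin remodeller needed for DNA methylation, at 2.78 ± 0.09 in XX and 0.61 ± 0.07 in XY (difference 2.16 ± 0.37 SE, adjusted p = 0.00233). Lower in XX were Morc1, a silencer of transposons in male germ cells (-5.78, adjusted p = 4.43e-06, well above background on 1 of the XX arrays), and Dppa3, a germ cell factor that restrains UHRF1 (-4.19 ± 0.48 SE, adjusted p = 1.44e-04). The other 3 were Shmt1, an enzyme of folate metabolism (-2.16), the methyl-CpG binding gene Mbd2 (-1.96, well above background on 1 XX array), and Kdm1b, a histone demethylase needed for imprints in oocytes (-1.37, adjusted p = 0.041). Morc1 and Kdm1b were on the list of de novo partners, of which 2 of 13 were lower and 0 higher. Morc1 entered the test only through XY, where it was high, so the counts lower in XX cannot be read against the shares of all probes. Among the 10 other maintenance genes, Hells was higher and 0 were lower.

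In the IPs, 5 of the 52 genes were higher than the input in XX and 1 was lower, and in XY 3 were higher and 2 lower, beside 14.0% higher and 9.91% lower of all probes in XX and 10.2% and 7.68% in XY. Among those well above background on all 4 arrays, the highest in both sexes were Rb1, which encodes a tumour suppressor that binds DNMT1 (2.65 ± 0.38 SE in XX and 2.99 ± 0.38 SE in XY), and Dppa3 (2.51 ± 0.48 SE and 2.91 ± 0.48 SE). Hells (2.47) and Zbtb33, a reader of methylated DNA (2.45), were called in XX. Mtr, methionine synthase, was called in XY (2.37 ± 0.42 SE, adjusted p = 0.00139). These values are on the first scale only. Over all probes, the number called higher fell from 2566 to 189 in XX and from 1861 to 219 in XY with scaling to the 50th percentile. With normexp it fell to 69 and 21. The values of these genes under the alternatives are not given here. Hdac2 had the highest fitted difference in XX (2.70), but both of its IP arrays and 1 of its input arrays were at background, so no fold is given. Apex1, a base excision repair enzyme, was lower in both (at least 3.24-fold in XX, and -2.47 in XY with 1 IP array above background), and Mbd3 was at least 1.51-fold lower in XY. Between the sexes, the difference in recovery was called for 1 of 52, Morc1, whose XX IPs and 1 of whose XX inputs were at background, so no value is given. Between the IPs, 4 of 52 were higher and 8 lower in XX, beside 11.7% and 8.78% of all probes. Hells (3.11 ± 0.37 SE) and Trdmt1, a relative of the DNMT family that methylates tRNA (2.82, with 1 XY array above background), were highest in XX, and Dppa3 (-4.59 ± 0.48 SE) and Ehmt2, a histone methyltransferase (-2.63 ± 0.46 SE), were lowest among those measured on all 4 arrays.

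The genes whose levels most resembled each member over the 8 arrays were found by Pearson correlation with its brightest probe, as a description of 8 points that share 4 groups, 2 slides and the depth of the fractions. For Dnmt1 they were Kctd5 (r = 0.998), Asb7 (0.998) and Srsf6 (0.997), all well above background on 8 arrays and all higher in the IPs. For Uhrf1 they were Itpa (0.994), Cdc42 (0.991) and Uqcrfs1 (0.991). For Dnmt3a they were Camkk2 (0.996), Mcam (0.990) and Dedd2 (0.990), for Dnmt3b Dapk2 (0.996), Cyp20a1 (0.990) and Bub3 (0.989), and for Dnmt3l Erbb3 (0.992), Tubb3 (0.992) and Mbl2 (0.989). At the lower value of 0.9, 1376 of 16885 probes exceeded it with Dnmt1, 279 with Uhrf1, 327 with Dnmt3a, 254 with Dnmt3b and 199 with Dnmt3l. Among the members, Dnmt1 and Uhrf1 had r = 0.868, and the de novo genes had r from 0.708 to 0.764 with each other. The correlations of the de novo genes include arrays at background. Their brightest probes were well above background on 6 (Dnmt3a), 5 (Dnmt3b) and 4 (Dnmt3l) of the 8 arrays, and their named neighbours on 5 to 7.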

How the data were processed

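Precipitated and input RNA of 4 groups with 2 samples each was hybridized to 1-colour Agilent whole mouse genome arrays. The deposited scanner files hold intensities after background subtraction in Feature Extraction 9.5.3.1, not normalized between arrays (per the file headers). The deposited table holds log2 values that the authors made by setting values under 1 to 1 and scaling to the 75th percentile, and it was used as an alternative. Outlier spots were removed, signals under 1 set to 1, spots of a probe averaged, and log2 values taken relative to the 75th percentile. Probes well above background in both replicates of 1 group or more were tested (18265 of 41101) with limma 3.58.1 in R 4.3.3, with 1 mean per group, 4 residual degrees of freedom, two-sided tests and Benjamini-Hochberg adjustment. The fit was tested on simulated data. The precision is limited by 2 arrays per group, and the labels do not say whether replicates came from separate lots, so p-values measure the spread between these samples only. Where 1 side was at background, a bound is given as "at least". The p-value beside a bound tests the measured values, not the bound. Named genes were all probes of the members, Dazl, up to 8 called genes of the methylation lists in each comparison and the 3 most similar genes of each member. Hdac2 was named after its values were seen. The members and lists were chosen with earlier results of these data known. Probe sequences, protein sequences and an mm8 annotation were not used here.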

Additional observations from a re-analysis of the deposited data

How the results depend on the processing

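The counts of called probes and the value of each member probe were computed again under the alternatives, 1 choice at a time except with normexp. Normexp also added its offset, and its second form also replaced outlying local backgrounds. The alternatives were 3 other scalings, normexp background correction (with its offset of 50 scanner units), a common floor, no filter and a stricter filter, the authors' table, the arrays of the contrast only, a block, no minimum fold and each array left out, and 2 were added after seeing the data (normexp with outlying local backgrounds replaced, and a floor at the highest detection limit, 1.02). Lower levels of Dnmt3l in the XX input kept their call under each that gave a value. The stricter filter leaves out the de novo genes, and the higher floor gave no value where both groups lay at it. Scaling to the 50th percentile turned the sign of IP minus input in XX for Dnmt1 (-0.68) and Uhrf1 (-1.03 and -0.88), and in XY for Dnmt1 (-0.74), Dnmt3b (-0.70), Uhrf1 (-1.43 and -1.41), Dnmt3l (-1.03) and Dnmt3a A_52_P169048 (-1.83). It changed the calls over all probes from 2566 higher and 1810 lower to 189 and 8643 in XX, and from 1861 and 1403 to 219 and 8379 in XY. Normexp turned the same values except Dnmt3b, in XX to -0.38, -0.29 and -0.81 and in XY to -0.29 (Dnmt1), -0.45 and -1.07 (Uhrf1), -0.89 (Dnmt3l) and -0.62 (Dnmt3a), and with outlying backgrounds replaced in XX to -0.38, -0.29 and -0.81 and in XY to -0.41, -0.68, -1.36, -1.13 and -0.96. It also turned the difference between the sexes for Dnmt1 (-0.087) and the inputs of Uhrf1 (0.29 and 0.70), which kept their signs with outlying backgrounds replaced (0.032 for Dnmt1, -0.16 and -0.15 for Uhrf1). IP minus input in XY of Dnmt3a became -0.29 at A_52_P169048 when scaled to probes detected on all arrays and 0.10 at A_52_P76146 with quantile normalization, which gave -0.0041 for the difference between the sexes of Dnmt1. The cause was not tested.

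The 1 probe called higher in the XX IP (Dnmt3l, at background) became 2 with no minimum fold and 0 with scaling to the 50th percentile, quantile normalization, either normexp, either floor and the stricter filter. The 0 called lower there became 1 with no minimum fold and with quantile normalization and 3 with the 50th percentile, and the 0 called higher in the XY IP became 2 with no minimum fold. For the difference between the sexes, 1 was lower with quantile normalization (Dnmt3a A_52_P169048). The number lower in the XX input, 2, became 1 with normexp (Dnmt3l) and 0 with the stricter filter, which tests only Dnmt1 and Uhrf1. With the floor at the highest detection limit it stayed at 2, with Dnmt3a A_52_P76146 in place of A_52_P169048 (-0.95, adjusted p = 0.108). It was 3, with that probe added, when scaled to probes detected on all arrays, with normexp and outlying backgrounds replaced, with only the arrays of the contrast, with the block and without any 1 of the 4 IP arrays. The number lower in the XX IP, 4, became 0 with normexp, 1 with outlying backgrounds replaced, 2 with the floor at the highest detection limit and 0 with the stricter filter.

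Without 1 array at a time, the number of probes higher in the difference between the sexes was 0 to 1 (Dnmt3l, without XY IP replicate 2). The difference between the sexes of Dnmt1 ranged from -0.075 to 0.48, XX IP minus XY IP of Uhrf1 from -0.17 to 0.72 at A_51_P491742 and from -0.13 to 0.87 at A_52_P314705, and IP minus input in XY from -0.21 to 0.28 (Dnmt3a A_52_P169048), from -0.17 to 0.069 (Dnmt3a A_52_P76146) and from -0.055 to 0.95 (Uhrf1 A_52_P314705). The replicate numbers are not known to pair the samples: deviations of same-numbered input and IP arrays correlated at 0.03 in XX and 0.14 in XY over 4206 probes, and those of XX and XY at 0.52 in the inputs and 0.54 in the IPs, with 2 arrays per group only. With the replicate number as a block, 1 probe (Dnmt3l, 2.31, at background in XX) was higher in the difference between the sexes in place of 0, and Dnmt3a A_52_P76146 passed in the inputs (-1.35, adjusted p = 0.0376).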
